A study of Drosophila melanogaster with 18 samples.

Results

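Insulin-like peptides, the insulin receptor and FOXO, together with adipokinetic hormone and its receptor, form the hormonal system that matches growth and stored fuel to nutrition in the fly. This account follows 10 of its genes, chosen by symbol from the 17658 genes of the deposited expression tables: Ilp2, Ilp3, Ilp5, Ilp6, ImpL2, InR, foxo, Thor, Akh and AkhR. All 10 were found, and all 10 were among the 9921 tested genes, those whose mean over all libraries reached 1 FPKM. FPKM is the number of sequenced fragments of a gene per unit of transcript length, scaled to the size of the library.

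RNA came from whole adult female Drosophila melanogaster aged 1 to 5 days and kept at 25 °C. Control flies had the genotype w;;+/UAS-Tudor-SN RNAi, and knockdown flies had w;;Da-GAL4/UAS-Tudor-SN RNAi. Both genotypes therefore carried the RNAi transgene of Bloomington line 34865, and the knockdown flies also carried Da-GAL4, which drives it from the daughterless promoter in almost every tissue. Driver-only flies were not analysed here, so effects of the driver and of the knockdown cannot be told apart. Tudor-SN is a nuclease that binds RNA and takes part in RNA interference and stress granules. In both genotypes flies were left in normal air (normoxia) or were held for 6 h at 6% O2 or 2% O2, giving 6 groups of 3 libraries, each library from 10 flies. The study asks how loss of Tudor-SN alters the transcriptome and its response to low oxygen.

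In flies, brain insulin-producing cells secrete Ilp2, Ilp3 and Ilp5, and the fat body secretes Ilp6. These peptides act on a single receptor, InR, whose signal through PI3-kinase and Akt keeps the transcription factor FOXO out of the nucleus. When the signal falls, FOXO enters the nucleus and activates genes such as Thor, the 4E-BP repressor of cap-dependent translation, and InR itself. ImpL2 is a secreted protein that binds insulin-like peptides and holds them from the receptor. Akh, made in the corpora cardiaca, is the fly's counterpart of glucagon and acts through AkhR on the fat body to release sugar and lipid.

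The targeted gene was low in every knockdown group. Tudor-SN stood at 214 ± 4.15, 217 ± 3.22 and 167.5 ± 6.55 scaled FPKM (SD, n = 3) in control flies in normoxia, 6% O2 and 2% O2. The knockdown values were 19.9 ± 1.43, 15.9 ± 2.20 and 5.56 ± 0.449. The remaining level in the knockdown was therefore lowest at 2% O2, where it was 3.32% of the control level, against 9.28% in normoxia. Libraries were close in depth, with a relative depth of 0.966 to 1.01 except for knockdown 2% O2 replicate 3 at 0.875, and 12525 to 12951 genes were above 0. That library also stood apart on the second principal component of all tested genes, at 0.95 against -15.55 and -16.81 for the other knockdown 2% O2 libraries, so results that rest on it are given with and without it. Male accessory-gland and testis genes summed to at most 0.757 FPKM in any library of these flies, which are labelled female.

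The 10 genes differed widely in level, which FPKM allows to be set side by side because it is per length. In control flies in normoxia Thor was the most abundant at 246 ± 24.7 scaled FPKM (SD, n = 3), followed by ImpL2 at 40.8 ± 6.19 and foxo at 28.1 ± 0.936. AkhR at 13.5 ± 1.97, Ilp6 at 12.2 ± 3.27, Ilp2 at 9.89 ± 1.34 and Akh at 9.83 ± 1.09 came next, and each of these 4 overlapped its neighbour in the order library by library. InR followed at 4.82 ± 0.414, and Ilp5 at 2.98 ± 1.01 and Ilp3 at 2.07 ± 0.453 came last and overlapped each other. Across all 18 libraries foxo moved least, with its highest library 1.34 times its lowest, and Thor moved most, at 6.96 times. In whole-fly RNA, fewer cells of a type and less RNA per cell cannot be told apart. That matters most for genes of few cells, such as Akh and Ilp2. Whole-fly RNA also does not show which tissue the transcripts of the insulin-like peptides came from.

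**Figure D1:**
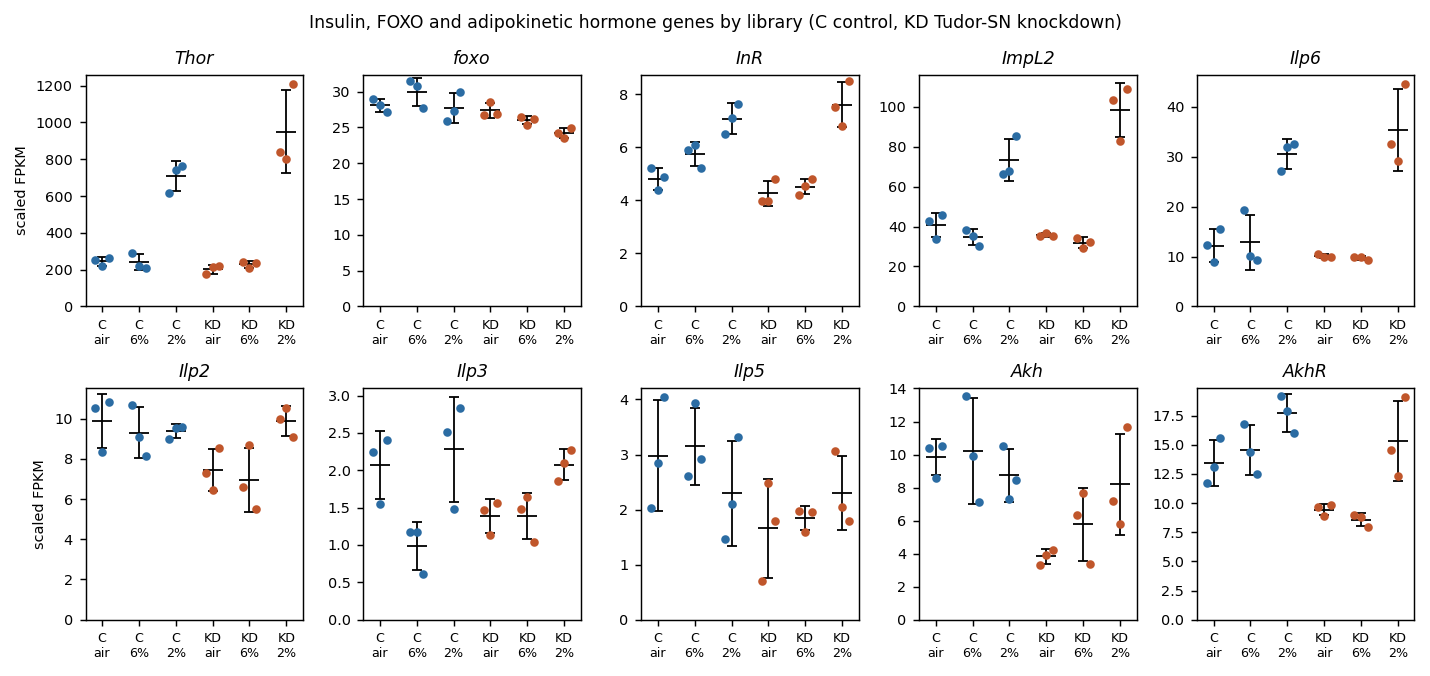
Scaled FPKM (vertical axis, from 0 in every panel) of the 10 genes in the 6 groups (horizontal axis: C control, KD Tudor-SN knockdown, in air, 6% O2 or 2% O2). Points are single libraries, horizontal bars the mean and whiskers the SD of 3 libraries. Thor, ImpL2, Ilp6 and InR stand above their normoxia libraries at 2% O2 in both genotypes, while foxo stays between 23.6 and 31.5 throughout.

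More of these genes were called at 2% O2 against normoxia than between the genotypes. In control flies 4 of the 10 rose against normoxia (Thor, Ilp6, ImpL2 and InR) and 0 fell, where 15.4% of all tested genes were called higher and 14.7% lower. In knockdown flies 7 rose (the same 4 and AkhR, Akh and Ilp2) and foxo fell, where 28.5% of all genes were called higher and 27.0% lower. The median log2 difference of the 10 genes was 0.23 in control and 0.67 in knockdown flies, against -0.010 and 0.002 for all tested genes. Libraries did not overlap, on the higher side, for 5 of the 10 in control flies (these 4 and AkhR), where 21.9% of all genes were higher and 22.1% lower without overlap. In knockdown flies this held for 8 on the higher side (the 7 called and Ilp3) and for foxo on the lower side, where the shares over all genes were 31.7% and 30.6%. Calls here and below are at an adjusted p under 0.05 in limma with Benjamini-Hochberg adjustment over all tested genes, on log2(scaled FPKM + 1). That scale understates the change of the low genes. Ovary and yolk markers moved in the same comparisons. Of 7 ovary markers 1 rose and 2 fell in control flies, and 2 rose and 4 fell in knockdown flies, with sums of 1109 to 1269 scaled FPKM against 1241 to 1268 in knockdown normoxia. Of 3 yolk markers 0 were called in control flies and 1 rose in knockdown flies, where sums were 3009 to 4922 against 2148 to 3069. Their part was not tested.

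Thor, the 4E-BP translation repressor (FBgn0261560, build BDGP6, chromosome 2L, 3478434 to 3479612), had the largest response of the 10 to 2% O2. The 3 control libraries in normoxia held 254, 218 and 266 scaled FPKM, and those at 2% O2 held 618.5, 744 and 765. The knockdown libraries held 174, 213 and 219 in normoxia and 837.5, 804 and 1209 at 2% O2. Every 2% O2 library lay above every normoxia library of its genotype, and the highest of all was the shallow knockdown replicate 3. The log2 difference was 1.52 ± 0.158 (SE) in control flies and 2.21 ± 0.158 in knockdown flies, with limma adjusted p of 7.52e-06 and 3.96e-08. Without knockdown replicate 3 the knockdown value was 2.03. At 6% O2 Thor was at 289, 222 and 208.5 in control and 239, 209 and 237 in knockdown libraries, which overlap normoxia in both genotypes.

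Among the ligands, the fat-body peptide Ilp6 and the brain peptides gave different readings at 2% O2. Ilp6 (FBgn0044047, chromosome X, 2331493 to 2334658) was at 12.2, 8.935 and 15.5 scaled FPKM in control normoxia libraries and at 27.2, 31.9 and 32.6 at 2% O2. In knockdown flies it was at 10.6, 9.90 and 9.90 in normoxia and at 32.5, 29.1 and 44.6 at 2% O2. The groups did not overlap in either genotype. Its log2 difference was 1.28 ± 0.228 in control (limma adjusted p = 0.0006775) and 1.69 ± 0.228 in knockdown flies (adjusted p = 2.275e-05), and 1.52 in the latter without replicate 3. Ilp2 (FBgn0036046, chromosome 3L, 9799698 to 9800440), the main circulating insulin-like peptide of the adult brain, stayed at 9.38 ± 0.329 against 9.89 ± 1.34 in control flies, a log2 difference of -0.06 with a 95% interval of -0.36 to 0.23. The ratio of Ilp6 to Ilp2 within a library was accordingly 1.07 to 1.43 in control normoxia and 3.02 to 3.40 at 2% O2, and 1.16 to 1.54 and 2.76 to 4.93 in knockdown flies.

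In knockdown flies Ilp2 was called higher at 2% O2, at 9.98, 10.5 and 9.06 scaled FPKM against 7.32, 6.46 and 8.52 in normoxia, a log2 difference of 0.37 ± 0.138 (limma adjusted p = 0.0330). The 2% O2 values lie within the range of the control normoxia libraries, and the knockdown normoxia values at its lower edge or under it. The call was lost without knockdown normoxia replicate 1 or 2 (adjusted p 0.0735 and 0.138) or knockdown 2% O2 replicate 1 or 2 (0.0721 and 0.0896), with FPKM as deposited (0.0751) and with quantile normalisation, where the difference was 0.11 (0.503).

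Ilp3 (FBgn0044050, chromosome 3L, 9801298 to 9802120) and Ilp5 (FBgn0044048, chromosome 3L, 9823349 to 9823897), the other peptides of the brain cells, were not called against normoxia in either genotype at 2% O2. Ilp3 ranged from 0.618 to 2.84 and Ilp5 from 0.708 to 4.04 scaled FPKM over the 18 libraries. From the spacing of low values, 1 fragment is worth about 0.0893 FPKM for a transcript as long as that of Ilp3 and 0.178 for Ilp5. The libraries thus rest on about 7 to 31 fragments for Ilp3 and 4 to 23 for Ilp5. Ilp3 was called in a comparison of the control flies at 2% O2 with those at 6% O2, with a log2 difference of 0.71 ± 0.172 (limma adjusted p = 0.00494). The control libraries at 6% O2 held 1.18, 1.17 and 0.618 scaled FPKM, under the 1.49 to 2.84 at 2% O2 and the 1.55 to 2.40 in normoxia.

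ImpL2, the secreted binding protein of insulin-like peptides (FBgn0001257, chromosome 3L, 4224006 to 4236147), stood at 42.6, 33.9 and 45.9 scaled FPKM in control normoxia libraries and at 66.6, 67.9 and 85.5 at 2% O2. The knockdown libraries held 35.1, 36.7 and 35.3 in normoxia and 103.6, 83.05 and 108.7 at 2% O2. No 2% O2 library overlapped normoxia in either genotype. The log2 differences were 0.83 ± 0.127 in control and 1.43 ± 0.127 in knockdown flies (limma adjusted p = 0.000177 and 3.02e-07), and 1.36 in the knockdown without replicate 3. In the reference annotation ImpL2 shares 1651 exon bases on the same strand with CG46460, for which the tables hold no separate value, so the pair cannot be told apart.

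The receptor InR (FBgn0283499, chromosome 3R, 21570248 to 21619321) is a receptor tyrosine kinase, and its log2 difference at 2% O2 was smaller than that of ImpL2, with no test between the 2 genes. Control libraries held 5.21, 4.385 and 4.86 scaled FPKM in normoxia, 5.91, 6.08 and 5.22 at 6% O2, and 6.48, 7.10 and 7.63 at 2% O2. Knockdown libraries held 3.982, 3.99 and 4.80 in normoxia, 4.21, 4.53 and 4.795 at 6% O2, and 7.52, 6.80 and 8.50 at 2% O2. In both genotypes the 2% O2 libraries lay above all others. The log2 difference from normoxia was 0.47 ± 0.0994 in control (limma adjusted p = 0.00199) and 0.71 ± 0.0994 in knockdown flies (adjusted p = 2.18e-05), and 0.64 in the knockdown without replicate 3. The ratio of ImpL2 to InR within a library was 7.73 to 9.43 in control normoxia and 9.56 to 11.2 at 2% O2, and 7.35 to 9.20 and 12.2 to 13.8 in knockdown flies.

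The transcript of foxo itself (FBgn0038197, chromosome 3R, 14056945 to 14087978) did not rise at 2% O2 in either genotype. Control flies held 28.1 ± 0.936 scaled FPKM in normoxia and 27.7 ± 2.08 at 2% O2, a log2 difference of -0.02 with a 95% interval of -0.14 to 0.10. In knockdown flies it fell from 26.7, 28.5 and 26.9 to 24.2, 23.6 and 24.9, a log2 difference of -0.17 ± 0.0579 (limma adjusted p = 0.0207). That call was lost without knockdown normoxia replicate 2 (adjusted p = 0.0851) or knockdown 2% O2 replicate 2 (0.0690). FOXO activity is set mainly by where the protein lies in the cell, which RNA levels do not measure. Its part in the Thor and InR changes was not tested.

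The adipokinetic hormone pair was called higher at 2% O2 in knockdown flies, and neither gene was called in control flies. The difference between the responses of the genotypes was called for neither (limma adjusted p 0.0997 for Akh and 0.442 for AkhR). Akh (FBgn0004552, chromosome 3L, 4141467 to 4142070) rose from 3.33, 3.92 and 4.24 scaled FPKM in normoxia to 7.18, 5.78 and 11.65 at 2% O2, a log2 difference of 0.88 ± 0.267 (limma adjusted p = 0.0112). The groups did not overlap, but the call was lost without knockdown 2% O2 replicate 3, where the difference was 0.63 (adjusted p = 0.0643). AkhR (FBgn0025595, chromosome 2L, 6711286 to 6716186), a G protein-coupled receptor, rose from 9.63, 8.90 and 9.79 to 14.55, 12.3 and 19.1, a log2 difference of 0.62 ± 0.137 (adjusted p = 0.00117) and 0.47 without replicate 3 (0.00666). In control flies Akh was at 10.4, 8.58 and 10.5 in normoxia and at 10.5, 7.31 and 8.45 at 2% O2, which overlap. AkhR in control flies was at 11.7, 13.1 and 15.6 in normoxia and at 19.2, 17.9 and 15.99 at 2% O2, a difference of 0.37 ± 0.137 that just missed the threshold (adjusted p = 0.0503). It passed without control normoxia replicate 3 (0.0264), in a fit of only the groups compared (0.0420), with a pseudocount of 5 (0.0477) and with a filter at a mean of 5 FPKM (0.0469). Among markers of nervous tissue in knockdown flies, 1 of 8 neuron markers and 4 of 7 photoreceptor markers rose at 2% O2 and 0 fell. Over all tested genes 28.5% were called higher and 27.0% lower there. Neuron sums were 77.3 to 90.2 scaled FPKM against 62.9 to 76.7 in normoxia. Their part in the Akh and Ilp2 changes was not tested.

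**Figure D2:**
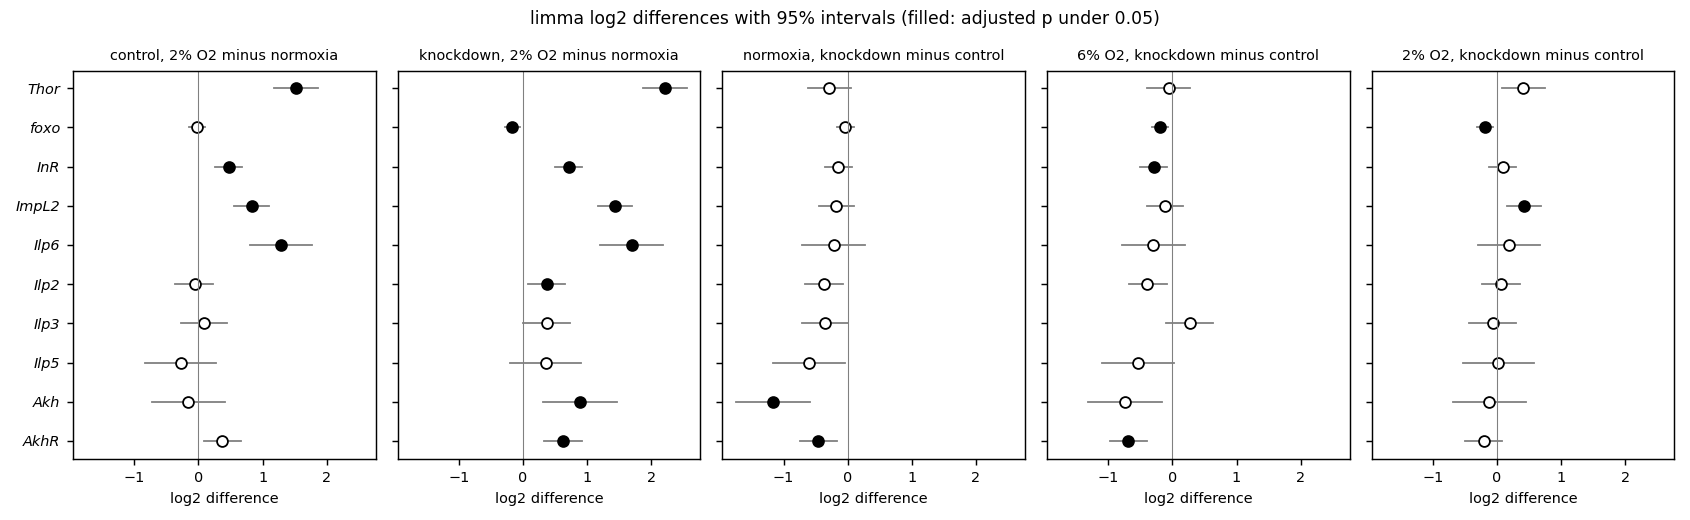
Log2 differences of scaled FPKM + 1 (horizontal axis) for the 10 genes (vertical axis) in 5 comparisons. Circles are limma estimates, lines their 95% intervals, and filled circles have an adjusted p under 0.05. Thor, ImpL2, Ilp6 and InR are filled to the right of 0 at 2% O2 in both genotypes, and the filled knockdown differences of Akh and AkhR in normoxia lie to the left of 0.

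Exposure to 6% O2 called 0 of the 10 genes against normoxia in either genotype, where 0% of all tested genes were called in control flies and 0.585% higher and 0.0403% lower in knockdown flies. At an unadjusted p under 0.05 limma had 1 of the 10 and 1329 of all tested genes in control flies, and 0 of the 10 and 746 of all genes in knockdown flies. The gene in control flies was Ilp3, lower at 6% O2 by a log2 difference of -0.63 ± 0.172 (adjusted p = 0.158). Against 6% O2, 2% O2 gave calls close to those against normoxia. In control flies Thor, Ilp6, ImpL2 and Ilp3 rose, 4 of 10 where 16.9% of all genes were called higher and 15.2% lower. In knockdown flies Thor, Ilp6, ImpL2, InR, AkhR and Ilp2 rose, 6 of 10 where 26.2% of all genes were called higher and 25.5% lower, and 0 of the 10 fell in either genotype. Ilp2 among them lost its call without knockdown 6% O2 replicate 3 (0.34, adjusted p = 0.0622) and with quantile normalisation (0.26, 0.118). InR in control flies missed the threshold (0.26, adjusted p = 0.0566) and passed without control 2% O2 replicate 1 (0.0474), with a pseudocount of 5 (0.0447) and with quantile normalisation (0.0323), and foxo in control flies (-0.11, 0.166) passed without control 2% O2 replicate 3 (-0.16, 0.0484). In knockdown flies foxo at 2% against 6% O2 passed with FPKM as deposited (-0.18, 0.01).

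Between genotypes in normoxia, the adipokinetic hormone genes were those called. Akh and AkhR were lower in the knockdown, 2 of 10 where 10.1% of all tested genes were called lower, and 0 of the 10 were higher, where 5.90% were. They were also the 2 whose libraries did not overlap between genotypes, both lower, where 19.1% of all genes were lower and 21.5% higher without overlap. That count lies near the share on the lower side and under it on the higher side. Akh in the knockdown was at 39.0% of the control mean, at 3.33, 3.92 and 4.24 scaled FPKM against 10.4, 8.58 and 10.5, with no overlap. Its log2 difference was -1.16 ± 0.267 (limma adjusted p = 0.0114), and it passed in all 8 other settings and without any single library of these groups, between -1.34 and -0.75. AkhR was at 9.44 ± 0.475 against 13.5 ± 1.97, also with no overlap, a log2 difference of -0.46 ± 0.137 (adjusted p = 0.0338). The AkhR difference no longer passed when control normoxia replicate 3 was left out (-0.36, adjusted p = 0.156), nor without knockdown normoxia replicate 1, 2 or 3 (0.0817, 0.107 and 0.0639), with no filter (0.0533) or quantile normalisation (0.107).

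The other 8 genes were not called between genotypes in normoxia, and all 8 estimates were below 0. Ilp2 came closest, at 7.32, 6.46 and 8.52 scaled FPKM in the knockdown against 10.5, 8.35 and 10.8, a difference of -0.37 (limma adjusted p = 0.0792) that passed without control normoxia replicate 2 (-0.47, 0.0331). Thor was at 202 ± 24.6 against 246 ± 24.7, ImpL2 at 35.7 ± 0.893 against 40.8 ± 6.19, and the intervals of their differences reached from -0.62 to 0.05 and from -0.45 to 0.10. The median over the 10 genes was -0.32, against -0.007 over all tested genes.

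Tissue markers differed between the same libraries in both directions. Over all tested genes 5.90% were called higher and 10.1% lower in normoxia. There 5 of 7 photoreceptor markers were called lower in the knockdown, with the summed level of the list at 1621 to 1838 scaled FPKM against 1760 to 2407. For neurons 0 of 8 markers were called and none was at 0, with sums of 62.9 to 76.7 against 65.9 to 107.5. For muscle 2 of 8 were called lower (sums of 1278 to 1637 against 1445 to 3075) and for gut 2 of 6 (705.5 to 1056 against 1241 to 1530), while for fat body 0 of 5 tested markers were called (139 to 163 against 140 to 215.5). For ovary 1 of 7 markers was called higher and 0 lower, with sums of 1241 to 1268 against 1037 to 1149, which do not overlap, and for yolk 0 of 3 were called (2148 to 3069 against 1438 to 2826). Akh itself is the corpora cardiaca marker used here. Limostatin (Lst), a second peptide hormone of those cells, was at 10.3 ± 0.870 against 11.4 ± 0.877, a log2 difference of -0.12 that was not called (limma adjusted p = 0.723). At 6% O2 and at 2% O2 Lst was called higher in the knockdown, but both calls were lost without single libraries. Without control replicate 1 of that oxygen level its log2 differences were 0.84 (limma adjusted p = 0.05995) and 0.79 (0.06965). The part of tissue make-up in the Akh and AkhR differences was not tested.

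At 6% O2 the knockdown was lower in AkhR, InR and foxo, 3 of 10 where 12.6% of all tested genes were called lower, and 0 of the 10 were higher, where 12.0% were. Libraries did not overlap for these 3 and Ilp5, all lower, where 23.9% of all genes were lower and 22.4% higher without overlap. AkhR was at 9.001, 8.83 and 7.93 scaled FPKM against 16.75, 14.4 and 12.5 in control libraries, without overlap. Its log2 difference of -0.69 ± 0.137 (limma adjusted p = 0.00356) passed in every alternative run. InR (-0.29, adjusted p = 0.0462) and foxo (-0.20, 0.0260) also had separate libraries, but their calls were less secure. The InR call was lost without control replicate 1 or 2 (0.145 and 0.117) or knockdown replicate 1, 2 or 3 (0.119, 0.114 and 0.0693), and in 5 of the 8 other settings, among them quantile normalisation, where it was -0.07 (0.578). The foxo call was lost without control replicate 1 or 2 (0.123 and 0.0683) or knockdown replicate 2 or 3 (0.0979 and 0.0597) and in a fit of only these groups (0.0680). Akh was at 6.32, 7.68 and 3.35 against 13.5, 9.91 and 7.13, a difference of -0.74 (adjusted p = 0.0551) that passed without control replicate 3 (0.0258) or knockdown replicate 2 (0.0494). Ilp2 (-0.39, 0.0512) passed without those same libraries (0.0353 and 0.0209). Photoreceptor markers were called lower in 6 of 7 cases here (sums of 1539 to 1775 against 2027 to 2502), neuron markers in 2 of 8 (63.5 to 68.8 against 84.3 to 93.9) and fat-body markers in 2 of 5 tested (101 to 126 against 143 to 193), and their part was not tested.

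At 2% O2 the knockdown was higher in ImpL2 and lower in foxo, 1 of 10 each way where 11.7% of all genes were called higher and 8.50% lower. Libraries did not overlap for Thor, on the higher side, and foxo, on the lower, where the shares over all genes were 20.0% and 15.0%. The counts of calls thus lie near the shares over all genes, and those of separate libraries lie under them. The ImpL2 libraries overlapped between genotypes (83.05 to 108.7 scaled FPKM against 66.6 to 85.5), and the log2 difference was 0.42 ± 0.127 (limma adjusted p = 0.0305). It was lost without control replicate 1 or 2 (0.122 and 0.0928), without knockdown replicate 1 or 3 (0.0964 and 0.102), with quantile normalisation (0.0579) and in a fit of only these groups (0.0988). The foxo difference was -0.19 ± 0.0579 (adjusted p = 0.0330), and it was lost without control replicate 2 or 3 (0.0519 and 0.157), without knockdown replicate 1 or 2 (0.0790 and 0.0956) and in a fit of only these groups (0.103). The Thor libraries did not overlap (804 to 1209 against 618.5 to 765), but its difference of 0.40 missed the threshold (0.0858), passed with quantile normalisation (0.0320) and was 0.22 without knockdown replicate 3 (0.307). Akh and AkhR, at 8.21 ± 3.07 against 8.75 ± 1.61 and 15.3 ± 3.45 against 17.7 ± 1.61, overlapped between genotypes. Neither was called (-0.12 and -0.21, limma adjusted p 0.794 and 0.298). Both overlaps rest on knockdown replicate 3, at 11.65 for Akh and 19.1 for AkhR. The other knockdown libraries lay under all control libraries, at 7.18 and 5.78 against 7.31 to 10.5 for Akh. For AkhR they were at 14.55 and 12.3 against 15.99 to 19.2. Without replicate 3 the difference was -0.37 for each (0.356 and 0.0510).

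Whether the genotypes responded differently was tested as the difference between their responses. For 2% O2 it called 0 of the 10 genes, where 5.43% of all tested genes were called with a higher and 2.21% with a lower response in the knockdown. The estimate was above 0 for 9 of the 10 genes, all but foxo, with a median of 0.42 against 0.019 over all tested genes. The share of all tested genes above 0 was not counted. All 10 estimates use the same libraries, among them those of knockdown normoxia, so they are not 10 separate observations. The nearest to the threshold were ImpL2 at 0.60 ± 0.180 (limma adjusted p = 0.0578), Thor at 0.69 ± 0.223 (0.0729) and Akh at 1.04 ± 0.378 (0.0997), and 4 of the 10 had an unadjusted p under 0.05, as had 2558 of all genes. ImpL2 passed without control normoxia replicate 2 (0.0183), control 2% O2 replicate 3 (0.0296) or knockdown 2% O2 replicate 2 (0.0185). Thor (0.0370) and Akh (0.0477) passed without knockdown 2% O2 replicate 2. Without the shallow replicate 3 of that group the values were 0.53 (0.136) for ImpL2, 0.51 (0.150) for Thor and 0.79 (0.231) for Akh. So the larger count of genes called in the knockdown at 2% O2 does not show a different response of any of the 10. For 6% O2 the test called 0 of the 10 and 0% of all genes, with 1 of the 10 (Ilp3, 0.62, adjusted p = 0.3905) and 1017 of all genes at an unadjusted p under 0.05.

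Other genes of the pathway were taken from 6 lists by role, 58 entries of which 56 matched a gene and 47 could be tested. At 2% O2 control flies had 12 of the 47 higher and 3 lower, and knockdown flies 15 higher and 13 lower, with medians of 0.06 and 0.09 against -0.010 and 0.002 for all genes. Over all tested genes 15.4% were higher and 14.7% lower in control flies and 28.5% and 27.0% in knockdown flies, and the knockdown count lies near those shares; the same shares apply to each list here. Without knockdown 2% O2 replicate 3 the knockdown count was 15 higher and 7 lower, where the shares over all genes were 25.6% and 22.8%. Of these calls, 6 of 15 in control and 17 of 28 in knockdown flies passed in every alternative run. The genes named in the next 3 paragraphs for 2% O2 are among them unless stated.

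Among signal transducers 3 of 10 rose in control flies, and 4 rose and 4 fell in knockdown flies. The 4 that fell were dock, Pi3K92E, Pi3K21B and step, and all 4 calls were lost without knockdown 2% O2 replicate 3 (limma adjusted p 0.0947, 0.0840, 0.1455 and 0.138), which left 4 higher and 0 lower. The glycogen synthase kinase gene sgg rose by 0.25 in control and 0.39 in knockdown flies. In knockdown flies chico, the insulin receptor substrate that links the receptor to PI3-kinase, rose from 12.1 ± 1.18 to 17.7 ± 1.95 scaled FPKM (0.51 ± 0.0874, limma adjusted p = 0.0001355). Lnk (0.43), which encodes an adaptor of the receptor, and melt (0.67), which encodes a membrane-bound regulator of FOXO and TOR signalling, rose there as well. In control flies Lnk (0.24) and melt (0.30) were called, but not in every alternative: Lnk lost its call without any of 4 libraries, control normoxia replicate 2 or 3 or control 2% O2 replicate 1 or 3 (adjusted p 0.0617 to 0.0805), and melt without control normoxia replicate 2 (0.146) or any control 2% O2 library (0.0565 to 0.101).

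Among FOXO regulators and targets 3 of 8 rose and 1 fell in control flies, and 3 rose and 2 fell in knockdown flies, as many as without knockdown 2% O2 replicate 3. The 1 that fell in control flies lost its call without any single library of these groups (limma adjusted p 0.0542 to 0.141). Without that library the 2 that fell in knockdown flies were at -0.27 and -0.33 (limma adjusted p 0.000885 and 0.0283). The alpha-glucosidase gene tobi, named as a target of brain insulin and known to respond to adipokinetic hormone too, went from 28.7 ± 5.91 to 203.4 ± 34.6 scaled FPKM in control flies (2.79 ± 0.397, limma adjusted p = 0.000177). In knockdown flies it went from 7.66 ± 0.311 to 148.5 ± 82.3 (3.97 ± 0.397, 2.73e-06). It was lower in the knockdown in normoxia (-1.76, 0.0122), which no longer passed with control normoxia replicate 3 left out (-1.61, 0.0569). Brummer (bmm), the triglyceride lipase, rose by 0.53 and 0.88, and the deacetylase gene Sirt1 by 0.43 and 0.55. Gut markers moved at 2% O2 as well: 3 of 6 rose and 1 fell in control flies, and 3 rose and 0 fell in knockdown flies. The digestive maltase Mal-A1 rose by 1.96 in control and 3.69 in knockdown flies, while the protease betaTry fell by 0.59 in control flies and was at 0.03 in knockdown flies, and Jon25Bi was called in neither (0.42 and 0.24). Summed gut markers were at 1204 to 1300 scaled FPKM against 1241 to 1530 in control and at 995.8 to 1442 against 705.5 to 1056 in knockdown flies. The part of the gut in the tobi change was not tested. Of 4 partners of Thor, 2 rose and 2 fell in control flies, and 1 rose and 2 fell in knockdown flies, or 2 and 2 without knockdown 2% O2 replicate 3. eIF4G1, the scaffold of the cap-binding complex, fell by 0.23 in control and 0.44 in knockdown flies. The cap-binding protein gene eIF4E1, whose product Thor binds, fell by 0.21 in knockdown flies, and Lk6, a kinase of eIF4E, rose there by 0.30. In control flies the calls of eIF4E1 (-0.12), Lk6 (0.15) and Tor (0.24), the growth kinase that phosphorylates Thor, were lost without single libraries. eIF4E1 lost its call without any of the 6 but control normoxia replicate 1 (adjusted p 0.0531 to 0.112), Lk6 without control normoxia replicate 2 or 3 or control 2% O2 replicate 3 (0.0510 to 0.131), and Tor without control normoxia replicate 1 or 3 or control 2% O2 replicate 1 or 3 (0.0565 to 0.0856).

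Of the signals that act on the insulin-producing cells, 3 of 10 tested rose in control and 6 in knockdown flies at 2% O2. Gbp1 and sun among the 6 lost their calls without knockdown 2% O2 replicate 3 (limma adjusted p 0.102 and 0.224), which left 4. Gbp2, a growth-blocking peptide of the fat body, rose by 1.26 in knockdown flies, and the neuropeptide gene AstA by 0.59. The 3 called in control flies, Gbp2 (0.63), CCHa2 (0.35) and sNPF (0.42), lost their calls without single libraries: Gbp2 without control normoxia replicate 1 or 2 or any control 2% O2 library (limma adjusted p 0.0766 to 0.154), CCHa2 without control normoxia replicate 1 (0.163) among others, and sNPF without control normoxia replicate 2 (0.210) among others. Lst, which encodes the corpora cardiaca hormone that holds back insulin release, was the only list gene called in the knockdown at 6% O2 against normoxia, at 26.5 ± 9.44 against 10.3 ± 0.870 scaled FPKM (1.21 ± 0.228, adjusted p = 0.0287). It lost that call without 5 of the 6 libraries, all but knockdown 6% O2 replicate 2 (up to 0.165), with the replicate block (0.0545) and in a fit of only the groups compared (0.211). Lst rose at 2% O2 in the knockdown as well (0.89, 0.00411), and there it passed in every alternative run.

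Of the genes of adipokinetic hormone processing and signalling, 1 of 12 rose in control flies at 2% O2, and 1 rose and 5 fell in knockdown flies. Without knockdown 2% O2 replicate 3 the knockdown count was 2 higher and 3 lower, with the calls of Crtc and Galphaq lost (limma adjusted p 0.0512 and 0.0629). Lsd-2, a perilipin of the lipid droplet surface, rose from 277 ± 10.8 to 358 ± 12.7 scaled FPKM in control flies (0.37, limma adjusted p = 0.000152) and from 292 ± 9.12 to 400.1 ± 26.8 in knockdown flies (0.45, 7.1e-06). Lsd-1, the other perilipin, named after its values were seen, was at 47.3 ± 5.99 in normoxia and 28.7 ± 5.43 at 2% O2 in knockdown flies (-0.71, 0.0246), lost without knockdown normoxia replicate 3 (0.0847) or knockdown 2% O2 replicate 1 or 2 (0.0876 and 0.0636). Plc21C, a phospholipase C gene, fell by 0.31 in knockdown flies. Crtc, which encodes a CREB coactivator, fell by 0.26 there, the call named above as lost. Pka-C1, the catalytic subunit of protein kinase A through which AkhR signals, fell by 0.18, lost without knockdown 2% O2 replicate 2 (0.0663). In normoxia, where Akh and AkhR were low in the knockdown, 0 of these 12 genes were called between genotypes. Over all tested genes 5.90% were called higher and 10.1% lower there, so a count of 0 among 12 says little. Fat-body markers moved at 2% O2 too: of 5 tested, Lsp2 rose by 1.30 in both genotypes and CG5966 by 1.30 and 2.34, apolpp fell by 0.68 in knockdown flies, and list sums were 192 to 215 in control and 129 to 210 in knockdown flies against 140 to 215.5 and 139 to 163 in normoxia. Their part in the Ilp6, AkhR and Lsd-2 changes was not tested.

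**Figure D3:**
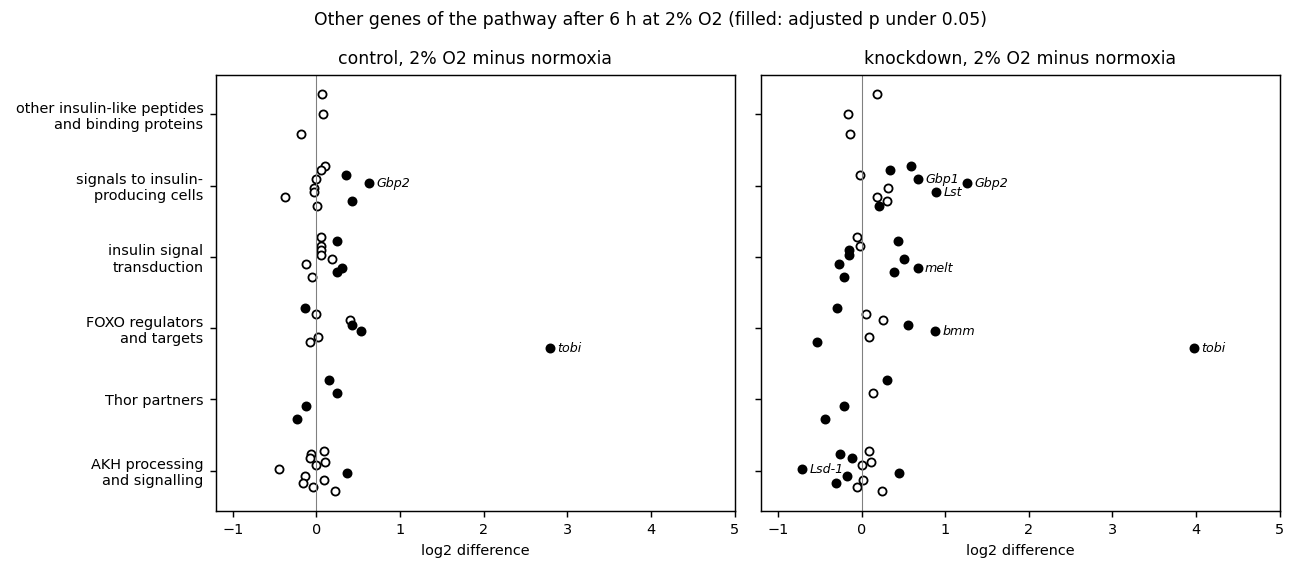
Log2 differences of scaled FPKM + 1 (horizontal axis) between 2% O2 and normoxia for 47 further genes in 6 lists (vertical axis), in control flies (left) and knockdown flies (right). Each circle is 1 gene, filled where the limma adjusted p is under 0.05, and genes that moved by 0.6 or more carry their names. tobi lies farthest right in both panels, at 2.79 and 3.97.

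Over the 18 libraries the 10 genes fell into patterns that can be described by how alike their log2 levels were. Pearson's r was 0.97 between Thor and Ilp6, 0.97 between Thor and ImpL2, 0.96 between ImpL2 and Ilp6, and 0.91 between InR and each of Thor and Ilp6. All 18 points share the 6 groups, so much of this is the common rise at 2% O2. With group means removed, r was 0.79 for Thor and Ilp6, 0.72 for Thor and ImpL2 and 0.73 for ImpL2 and Ilp6. Akh and AkhR had r = 0.77 over all libraries and 0.74 with group means removed. For foxo and Thor it was -0.41 over all libraries and 0.59 with group means removed. Values of 1 library also share its depth and scaling.

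**Figure D4:**
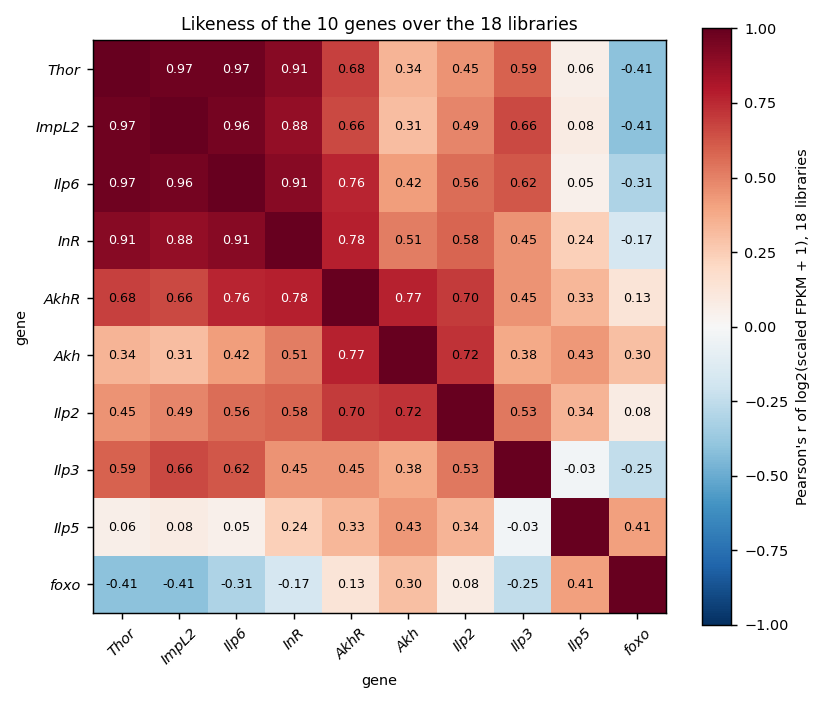
Pearson's r of log2(scaled FPKM + 1) over the 18 libraries for each pair of the 10 genes (both axes), from blue at -1 through white at 0 to red at 1. Thor, ImpL2, Ilp6 and InR form a block of values from 0.88 to 0.97, and foxo has a negative r with Thor of -0.41.

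The genes most like each of the 10 were taken from the 8148 tested genes whose mean reached 5 FPKM. For Thor they were CG14196 (r = 0.990, n = 18 libraries), CG7220 (0.989) and Pcyt1 (0.989), and CG7220 (0.984) and CG14196 (0.982) were also the nearest to ImpL2, before the heat shock gene Hsp68 (0.979). Ilp6 was nearest to Nmdmc, an enzyme of mitochondrial folate metabolism, CG32549 (both 0.979) and Eip75B (0.978), a nuclear receptor. For InR they were kay, the fly Fos (0.966), CG5830 (0.965) and cv-c (0.962), and for AkhR svp, a nuclear receptor (0.958), CG10562 (0.949) and Cyp6g1 (0.947). Akh followed CG6465 (0.890), caps (0.876) and Cyp28d1 (0.872). The nearest genes were less alike for foxo (Uhg1 0.893, Diedel3 0.853, FoxK 0.842), Ilp2 (rtp 0.845, Eip63F-1 0.814, Moe 0.812), Ilp3 (CG31886 0.795, CG1674 0.764, CG14778 0.740) and Ilp5 (CG3663 0.724, Npc2f 0.710, Peritrophin-15b 0.703).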

How the data were processed

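The authors deposited 1 table per library of FPKM for 17658 genes. Cufflinks, TopHat2, HTSeq and build BDGP6 are named, per the submitters' processing notes, and their versions are not given in the sources used here. Per the labels' protocols, polyadenylated RNA was read on the BGISEQ-500 platform; strand specificity is not stated there. Ilp2 and Ilp3 lie within the span of CG32052, Ilp5 within CG43897 and Ilp6 within Raf, with 0 shared exon bases. FPKM is relative to the library total (sums of 876999 to 1000923) and carries no read total. Relative depth and the worth of 1 fragment were estimated from 1068 low single-transcript genes, and fragment numbers cover counting error only.

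Each library was scaled by the median of its ratios to the geometric mean of 9068 genes (factors of 0.947 to 1.04). Genes under a mean of 1 FPKM were dropped, and limma 3.58.1 under R 4.3.3 was run on log2(value + 1) (6 group means, 18 libraries, trend and robust options), after a test on simulated data. The Benjamini-Hochberg adjustment was made per comparison, over all genes tested, in 11 comparisons. An exact permutation test of 3 against 3 libraries cannot go below 0.1. The labels give 3 libraries of pooled flies per group and do not say whether they are separate experiments, so p-values measure the spread between them. The alternatives tried were quantile normalisation, unscaled FPKM, a filter at 5 FPKM or none, pseudocounts of 0.1 or 5, a fit restricted to the groups compared, one with the replicate number as a block, and each library left out in turn.

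The 10 genes and all lists were chosen with earlier results of these data known, and 1 gene of the lists is not reported here. Named were the 10 genes, up to 4 called genes per list by smallest adjusted p in a comparison described, the 3 genes most like each of the 10, and Tudor-SN. Outside that rule, further list genes were named whose calls were lost without single libraries. Lst was also named where it was not called, and some tissue markers were named singly. Marker lists were yolk protein, male, fat-body, neuron, photoreceptor, muscle, gut, ovary, insulin-producing cell (Ilp2, Ilp3, Ilp5) and corpora cardiaca (Akh) genes. At 2% O2, knockdown against control, yolk markers were called higher in 2 of 3, ovary markers higher in 1 and lower in 1 of 7, photoreceptor markers lower in 3 of 7 and neuron markers in 1 of 8. Over all tested genes 11.7% were called higher and 8.50% lower in that comparison. Of 17658 gene identifiers 17521 were in the reference annotation, and coordinates are 1-based.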

Additional observations from a re-analysis of the deposited data

Results flagged for a closer look

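Of the 10 genes, 0 had a response to low oxygen that differed between genotypes at an adjusted p under 0.05, and of 47 tested genes of the lists by role 2 did at 2% O2, 1 higher and 1 lower, where 5.43% of all tested genes were called higher and 2.21% lower in that test. The lipase gene bmm rose from 34.6 ± 0.949 to 50.6 ± 1.96 scaled FPKM (SD, n = 3) in control flies and from 36.5 ± 0.798 to 68.0 ± 5.02 in knockdown flies, a difference between the responses of 0.34 ± 0.0725 (SE) on the log2 scale (limma adjusted p = 0.0109). It passed in every alternative run, at 0.29 to 0.41, and was 0.31 (adjusted p = 0.0242) without knockdown 2% O2 replicate 3. The initiation factor gene eIF4G1 went from 105.4 ± 2.39 to 89.9 ± 1.05 in control flies and from 114 ± 4.49 to 83.6 ± 3.88 in knockdown flies, a difference of -0.22 ± 0.0636 (adjusted p = 0.0492). That call was lost without 10 of the 12 libraries, all but control normoxia replicate 2 and knockdown 2% O2 replicate 1 (up to 0.115), and in 4 of the 8 other settings. The libraries of bmm did not overlap between genotypes at 2% O2, where 20.0% of all tested genes were higher in the knockdown without overlap.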

How the results depend on the processing

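Thor, ImpL2, Ilp6 and InR at 2% O2 against normoxia in both genotypes, AkhR there in knockdown flies, Akh between genotypes in normoxia and AkhR between genotypes at 6% O2 passed in every alternative run. Over all single-gene results of the 10 genes, 1567 alternatives were counted as kept, 43 lost a call, 25 gained one and 3 were counted as changed in sign. Kept includes differences that were called in neither fit, so 1567 does not measure how many calls held. A sign change was counted as kept where neither fit called the difference and both estimates lay within their SE of 0. Akh between genotypes at 2% O2, for example, ranged from -0.37 to 0.08 with 1 library left out. Of the 3, InR between genotypes in normoxia was 0.05 with quantile normalisation. Without control 6% O2 replicate 1 Ilp6 was 0.01 between genotypes at 6% O2 and -0.28 in control flies at 6% O2 against normoxia. None of the 3 was called. With 1 library left out these Ilp6 differences ranged from -0.48 to 0.01 and from -0.28 to 0.21. The number of the 10 called between genotypes in normoxia (2) was 1 with no filter and with quantile normalisation. At 6% O2 (3) it was 1, and at 2% O2 (2) it was 0, in a fit of only the groups compared. The difference of the responses to 2% O2 (0) called 1 with quantile normalisation (Thor, 0.66) and 1 with the replicate block (ImpL2, 0.60, adjusted p = 0.0455). Leaving out 1 library gave 1 to 3, 1 to 5 and 0 to 1 genes between genotypes in normoxia, 6% O2 and 2% O2. Against normoxia it gave 4 to 5 at 2% O2 in control and 6 to 8 in knockdown flies, 0 to 0 at 6% O2 in either, and against 6% O2 4 to 5 and 5 to 6. For the differences of responses it gave 0 to 0 at 6% O2 and 0 to 3 at 2% O2. Deviations of same-numbered libraries correlated at -0.33 to 0.25 between groups. Libraries of different number were not compared, so these values cannot decide whether replicate numbers pair the libraries. The block left every other count of the 10 genes within 1.5 times, and it moved the calls over all genes in knockdown flies at 6% O2 from 62 to 31. Calls over all genes moved by more than 1.5 times in a fit of only the groups compared (6% O2 between genotypes from 2448 to 1396, 2% O2 from 2000 to 1177, control 6% O2 from 0 to 2). For control 6% O2 they were also 1 with no filter and 25 with quantile normalisation, and for the response to 6% O2 5 with a mean of at least 5 FPKM and 27 with quantile normalisation, against 0. With 1 library left out, calls over all genes ranged from 607 to 2244 between genotypes in normoxia (1589 with all libraries, and 1019 or fewer unless control replicate 2 was the one left out), from 887 to 2725 at 6% O2 (887 without control replicate 1, 946 and 1308 without knockdown replicate 2 and 3) and from 1202 (control replicate 1) to 1977 at 2% O2. They ranged from 9 to 90 in knockdown flies at 6% O2, with 39 or fewer unless knockdown 6% O2 replicate 2 was the one left out, and from 0 to 5 in control flies. For the response to 6% O2 they ranged from 0 to 11. For the response to 2% O2 (758) they ranged from 337 (without control 2% O2 replicate 1) to 1295 (without knockdown 2% O2 replicate 2), and were 454 without knockdown 2% O2 replicate 3. The shares over all genes printed beside the counts rest on these totals. The share of calls that were higher moved with scaling: in normoxia 36.8% became 53.6% with quantile normalisation, at 2% O2 between genotypes 57.85% became 43.6% as deposited, in knockdown flies at 2% O2 51.4% became 41.3% as deposited and 38.6% with quantile normalisation, against 6% O2 there 50.7% became 39.2% and 40.6%, in knockdown flies at 6% O2 93.55% became 82.7% with quantile normalisation, and for the response to 2% O2 71.1% became 58.8% and 44.8%. The median of all genes moved by less than 0.1 under both. Ilp3 and Ilp5 were not tested at a mean of at least 5 FPKM. Where a call was lost, the cause was not tested. Ilp3 and Ilp5 rest on the fewest fragments of the 10.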
